A study of Mus musculus with 6 samples.

Results

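A set of 35 genes for lysosomal enzymes, lysosomal membrane proteins and their regulators was examined among the 55401 genes of a mouse RNA-seq count table. The genes were taken by symbol from a list of the pathway, and every symbol matched 1 row of the table. RNA had been sequenced from V6.5, a mouse embryonic stem cell line, in 2 genotypes: unmodified wild-type cells (WT) and cells with both copies of Cdh1, the gene of the adhesion protein E-cadherin, disrupted (Cdh1-/-, here the knockout). The labels give no treatment, and each group had 3 libraries, A, B and C. The labels do not say whether these came from separate cultures, nor how many clones the knockout cells represent, so p-values measure the spread between these libraries, which may be technical.

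Lysosomes are acidic compartments in which proteins, glycans and lipids delivered by endocytosis and autophagy are broken down by soluble hydrolases. The transcription factors TFEB and TFE3 activate many lysosomal genes through an E-box, often extended to the so-called CLEAR motif, in their promoters, and both are held in the cytoplasm when the kinase mTORC1 phosphorylates them at the lysosome surface. Folliculin, the product of Flcn, acts on the Rag GTPases in that step, and in mouse embryonic stem cells Flcn and Tfe3 are known for their part in the exit from naive pluripotency.

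The total count per library lay between 18020719 and 23381942. The least counted of the 35 genes in any library still had 81 counts, so depth did not keep any of them out of the test. Levels are CPM, counts scaled to a common library size, after TMM scaling. Cdh1 itself stood at 537 to 571 CPM in WT and at 166 to 183 CPM in the knockout, lower in each knockout library as the labels state, though not absent. The 10 stem cell markers examined summed to 5269 to 5725 CPM in WT, against 5783 to 7188 CPM in the knockout, and none was at 0 in all libraries. Of these, Klf4 and Tdgf1 were called higher (means of 237 and 1302 CPM in WT, against 513 and 2014 CPM in the knockout) and Lin28a lower (328 and 190 CPM). Of 6 macrophage markers, Adgre1 and Ptprc had 0 counts in every library, and 4 of the 6, these included, never exceeded 6 counts in a library. Feeder fibroblast markers, 8 genes of which 1 was called lower and 0 higher, summed to 27.3 to 44.8 CPM in WT, against 19.9 to 32.2 CPM in the knockout.

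Part of the lysosomal genes, from all 5 roles examined, were higher in the knockout. All 35 genes passed the filter on low counts, and 14 of them were called higher in the knockout at an adjusted p under 0.05 in edgeR's quasi-likelihood test. That is 40.0% of the set, whereas 7.60% of all 17325 tested genes were called higher. The set was chosen with earlier results of these data known, so these shares describe the set and do not test it. None was called lower (0 of 35), against 5.71% of all tested genes. At an unadjusted p under 0.05 there were 18 higher and 0 lower, beside 2444 and 2178 of all 17325 tested genes. DESeq2 called 15 of the 35 higher (8.36% of all genes) and limma-voom 15 (7.50%), and both called 0 lower. At an adjusted p under 0.01, 9 were higher, against 4.51% of all genes. The 14 called genes rose between 1.23-fold and 2.18-fold, with a median of 1.40-fold, and 2 of them, Ctsb and Ctsh, rose more than 2-fold. Ctsb lies on chromosome 14, whose genes were higher as a whole in the knockout. With that shift removed its log2 fold change was 0.58, which is under 2-fold. The median log2 fold change of the 35 genes was 0.25, beside -0.01 for all tested genes. Of the 35 values 32 were above 0, as were 48.9% of those of all tested genes.

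In 17 of the 35 genes every knockout library lay above every WT library, a pattern found in 15.7% of all tested genes. These were the 14 called genes and Cd63, Psap and Lipa. In 0 of the 35 did every knockout library lie below every WT library, as 2602 of all 17325 tested genes did. Summed over the set, TPM, a level that also corrects for gene length, came to 3331, 3271 and 3148 in WT A, B and C, and to 4360, 3856 and 4015 in knockout A, B and C. The groups did not overlap, and knockout A was the highest of the 6. Knockout A was also the highest knockout library for 23 of the 35 genes. The number called higher was 9 without WT A (4.73% of all genes), 10 without WT B (4.97%) and 13 without WT C (6.02%). It was 13 without knockout A (8.67%), 11 without knockout B (5.87%) and 9 without knockout C (5.29%).

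Markers of extraembryonic endoderm, a lineage that embryonic stem cells can form, moved with the genotype as well. Of 12 markers, 10 were tested and 8 were called higher and 0 lower, when 7.60% of all tested genes were called higher and 5.71% lower. The marker counts were 8 and 0 at an unadjusted p under 0.05, and 7 and 0 with DESeq2 and with limma-voom. No marker was at 0 in all libraries, but Afp never exceeded 6 counts. The summed level of the 12 was 195, 268 and 251 CPM in WT A, B and C and 218, 342 and 514 CPM in knockout A, B and C. The most abundant marker, Lrp2, was not called (137, 179 and 164 CPM in WT, against 65.0, 127 and 195 CPM in the knockout). Apoa1 was not called either (6.08, 0 and 0.90 CPM in WT, against 5.97, 0.26 and 0.30 CPM in the knockout). Without Lrp2, a choice made after its values were seen, the other 11 summed to 58.3, 89.5 and 86.6 CPM in WT, against 153, 215 and 320 CPM in knockout A, B and C. Every knockout library then lay above every WT library, and knockout C was the highest, while the lysosomal sum was highest in knockout A. The endoderm factors themselves were higher in knockout A than in any WT library, with Gata4 at 26.8 CPM against 8.08 to 15.2 CPM in WT and Gata6 at 10.7 CPM against 3.11 to 5.60 CPM. Gata4 and Sox7, the marker with the largest rise (log2 change 2.18), lie on chromosome 14, whose genes were higher as a whole in the knockout. In bulk RNA, more cells of a type and more RNA per cell cannot be told apart, and the part of these cells in the lysosomal result was not tested.

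**Figure D1:**
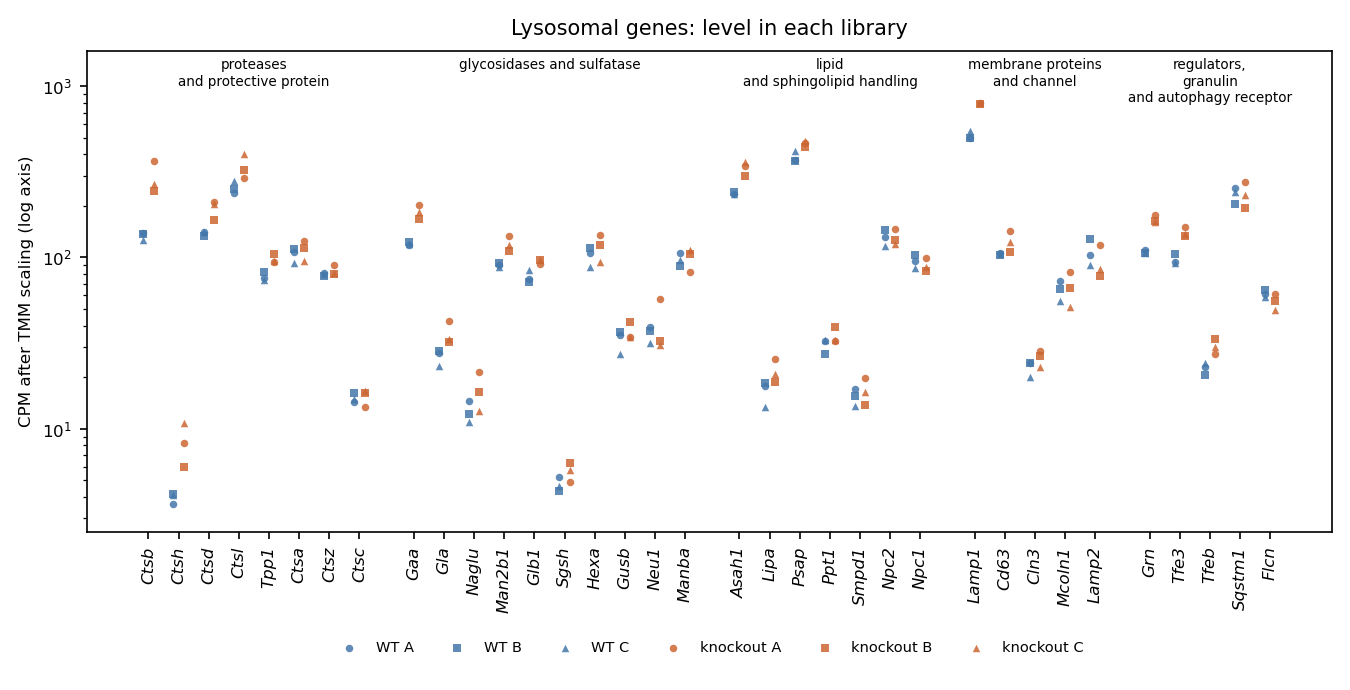
Level of each of the 35 lysosomal genes in each library, in CPM after TMM scaling on a log axis, with genes grouped by role and ordered by log2 fold change within a role (blue, WT; orange, knockout; circle A, square B, triangle C). For Lamp1, at the top of the range, the 3 knockout libraries lie between 785 and 801 CPM and the 3 WT libraries between 496 and 549 CPM.

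The promoters were searched for the E-box that TFEB and TFE3 recognise, since these factors and many of their known targets are in the set. RefSeq windows of the build GRCm38.p6, from 250 bases before to 50 bases after an annotated start, were used for 31 of the 35 genes; Ctsb, Ctsh, Npc1 and Asah1 had no entry. The palindrome CACGTG, which reads the same on both strands, occurred in the windows of 11 of the 31 genes (35.5%). It occurred in those of 8.09% of all 27025 genes with a window, whether tested or not. Among genes called higher it was present in 6 of 11 (54.5%), and among those not called in 5 of 20 (25.0%). The CLEAR palindrome, in which GT precedes and AC follows the shorter one, was found for Cln3 alone of the 31, and for 0.370% of all genes. Because known targets were in the set from the start, these shares describe it and do not test it. A difference between called and other genes was not tested either. A match describes letters in a window and says nothing of binding in these cells.

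The 4 called genes of largest change with a match are shown in the sense of the gene, with CACGTG in capitals and only bases outside the annotated gene, except for 1 short stretch of Ctsd. The stretch of Lamp1 is chr8:13158911-13159160 on the plus strand and holds 4 matches, whose first bases lie 61, 45, 28 and 15 bases before the start. That of Gaa is chr11:119267713-119267886 on the plus strand, with 1 match 140 bases before the start. Ctsd is on the minus strand, with 1 match 245 bases before the start in chr7:142388039-142388077 and 1 match 98 bases before it in chr7:142387908-142387937, which the annotation places within the gene. Gla is also on the minus strand, with matches 227 and 194 bases before the start in chrX:134601126-134601255.
Lamp1: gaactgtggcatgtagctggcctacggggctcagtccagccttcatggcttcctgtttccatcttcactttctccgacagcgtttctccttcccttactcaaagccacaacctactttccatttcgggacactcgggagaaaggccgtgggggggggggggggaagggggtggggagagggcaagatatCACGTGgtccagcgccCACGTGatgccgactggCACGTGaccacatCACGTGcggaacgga
Gaa: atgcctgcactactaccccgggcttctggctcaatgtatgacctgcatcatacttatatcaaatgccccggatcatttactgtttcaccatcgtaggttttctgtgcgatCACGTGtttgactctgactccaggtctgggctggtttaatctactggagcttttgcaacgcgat
Ctsd, far match: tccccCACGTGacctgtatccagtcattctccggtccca
Ctsd, near match: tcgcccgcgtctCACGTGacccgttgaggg
Gla: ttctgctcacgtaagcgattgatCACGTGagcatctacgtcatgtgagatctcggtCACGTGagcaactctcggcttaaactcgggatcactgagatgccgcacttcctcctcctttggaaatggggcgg

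**Figure D2:**
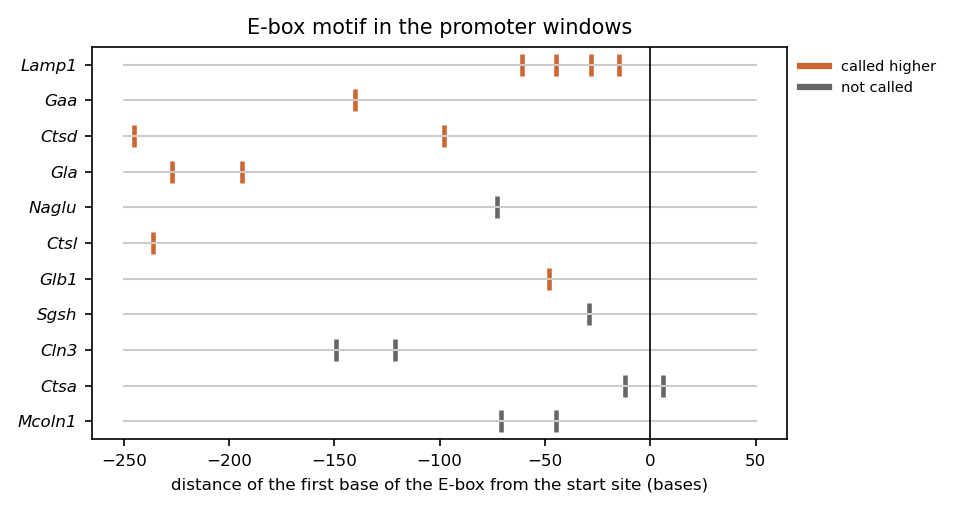
Distance in bases from the RefSeq start (0) to the first base of each CACGTG match in the windows of the 11 genes that hold 1 or more, ordered from the highest log2 fold change (top) to the lowest; grey lines span the window. Lamp1 holds 4 matches within 61 bases of the start, and 6 of the 11 genes were called higher (orange).

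Proteases were the role with the most called genes, 5 of 8 higher and 0 lower with edgeR, DESeq2 and limma-voom alike. Of all tested genes 7.60% were called higher and 5.71% lower with edgeR. In the role of regulators, with Grn and Sqstm1, 3 of 5 were called higher, and a difference between roles was not tested. Ctsb (ENSMUSG00000021939.8, chromosome 14, 63122462 to 63145923) encodes cathepsin B, a cysteine protease. It stood at 140, 137 and 126 CPM in WT A, B and C and at 367, 246 and 267 CPM in the knockout libraries. The groups did not overlap, and knockout A lay well above the other two. Ctsb rose 2.18-fold (log2 change 1.13, SE 0.13, adjusted p 3.96e-05), the largest rise of the 35 genes. It is the only gene of the set on chromosome 14, whose genes were higher as a whole in the knockout. The median shift of 400 chromosome 14 genes was 0.55, 0.54 and 0.54 on the log2 scale in knockout A, B and C. With it removed the log2 fold change of Ctsb was 0.58, at an adjusted p of 0.00668. Ctsb was then no longer the largest rise, since Ctsh (1.07), Grn (0.63), Lamp1 (0.62) and Gaa (0.62) lay above it. By level per length Ctsb moved from rank 16 of the 35 in WT (71.3 TPM) to rank 8 in the knockout (151 TPM).

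Ctsh (chromosome 9, 90054267 to 90076089), the gene of the aminopeptidase cathepsin H, was among the least abundant of the set. It had 3.65, 4.14 and 4.10 CPM in WT, against 8.24, 5.94 and 10.7 CPM in the knockout from 81 to 213 counts per library. The values did not overlap, though the knockout libraries spread widely. Its log2 fold change was 1.07 (SE 0.24, adjusted p 0.00804), and its adjusted p was 0.0558 without knockout C.

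Ctsd (chromosome 7, 142375911 to 142388038) encodes the aspartic protease cathepsin D, and Ctsl (chromosome 13, 64359337 to 64370890) the cysteine protease cathepsin L. Ctsd had 140, 133 and 140 CPM in WT, against 210, 164 and 205 CPM in the knockout (log2 change 0.49, SE 0.10, adjusted p 0.00394). Ctsl had 237, 251 and 278 CPM in WT, against 291, 324 and 401 CPM in the knockout (log2 change 0.41, SE 0.11, adjusted p 0.0249). Neither overlapped between genotypes, but knockout A was highest for Ctsd and lowest of the knockout libraries for Ctsl. Ctsl was no longer called without WT A (adjusted p 0.131), without WT B (0.108), without knockout B (0.0525) or without knockout C (0.130). Tpp1, the gene of tripeptidyl peptidase 1, whose loss causes a childhood neuronal ceroid lipofuscinosis, had 75.8, 82.7 and 74.1 CPM in WT, against 94.0, 105 and 95.7 CPM in the knockout. It rose 1.27-fold (log2 change 0.34, SE 0.09, adjusted p 0.0204), with an adjusted p of 0.0928 without WT A, 0.0749 without WT C and 0.0878 without knockout B.

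The other proteases were not called. Ctsz, the gene of cathepsin Z, had 78.4 to 80.7 CPM in WT, against 80.5 to 90.5 CPM in the knockout (log2 change 0.08, 95% interval -0.11 to 0.26). Ctsc, whose product cathepsin C activates serine proteases of immune cells, had 14.3 to 16.2 CPM in WT, against 13.4 to 16.7 CPM in the knockout (log2 change 0.03, interval -0.28 to 0.33). Ctsa, which encodes the protective protein cathepsin A, had a log2 fold change of 0.09 (interval -0.14 to 0.33). Their upper bounds lay under 0.49, the median log2 fold change of the called genes, which were picked by passing the threshold. The bounds of Ctsa and Ctsc still lay above the 0.30 of Glb1, a called gene. A difference from the called genes was not tested.

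Some of these genes overlap others, and whether counting used strand is not given in the sources used here. Exons of Fdft1 on the opposite strand cover 16.3% of the exon bases of Ctsb, and Fdft1, of the same chromosome, differed by 0.59 on the log2 scale. For Ctsl the share is 28.2% under Gm47123, which had 0 counts in every library. Gm49369 shares 31.5% of the exon bases of Ctsd on the same strand and also had 0 counts in every library. Shares between 13.2% and 22.3% under genes of the opposite strand applied to Ctsa, Sgsh, Sqstm1 and Cln3, none of which was called.

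Enzymes that cleave glycans contributed 4 genes called higher of 10, and 0 called lower, with edgeR, DESeq2 and limma-voom alike. With edgeR 7.60% of all tested genes were called higher and 5.71% lower. Gaa (chromosome 11, 119267887 to 119285454), the gene of acid alpha-glucosidase, which degrades glycogen, had 119, 123 and 120 CPM in WT, against 204, 168 and 183 CPM in the knockout. The 2 ranges were far apart compared with the spread within WT. Gaa rose 1.53-fold (log2 change 0.62, SE 0.09, adjusted p 0.000326). Man2b1, the gene of lysosomal alpha-mannosidase, had 89.8, 93.0 and 88.2 CPM in WT, against 134, 108 and 117 CPM in the knockout (log2 change 0.41, SE 0.09, adjusted p 0.00932). Both remained called when any 1 library was left out.

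Gla and Glb1 were called close to the threshold. Gla, on chromosome X (134588149 to 134601125), encodes alpha-galactosidase A. It had 27.8, 28.3 and 23.3 CPM in WT, against 42.7, 32.1 and 33.4 CPM in the knockout (log2 change 0.45, SE 0.13, adjusted p 0.0397). Its adjusted p was 0.0923 without WT A, 0.0782 without WT B, 0.146 without WT C, 0.111 without knockout A and 0.0559 without knockout C. Glb1, the gene of lysosomal beta-galactosidase, had 74.6, 72.2 and 84.2 CPM in WT, against 91.4, 96.2 and 96.8 CPM in the knockout (log2 change 0.30, SE 0.09, adjusted p 0.0420). Without WT A its adjusted p was 0.161, without WT B 0.158, without knockout B 0.109 and without knockout C 0.124. For both genes all knockout values lay above all WT values.

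Beta-galactosidase, neuraminidase 1 (Neu1) and cathepsin A form a complex in the lysosome. Of its 3 genes Glb1 alone was called, when 7.60% of all tested genes were called higher. Neu1 had 39.4, 37.4 and 31.5 CPM in WT, against 56.8, 32.5 and 31.0 CPM in the knockout, so that knockout A stood apart while B and C lay at the WT level (log2 change 0.15, interval -0.26 to 0.55). A difference between the changes of the 3 genes was not tested.

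Enzymes of heparan sulfate degradation were scarce. Naglu, the gene of alpha-N-acetylglucosaminidase, had 14.4, 12.2 and 11.0 CPM in WT, against 21.5, 16.3 and 12.8 CPM in the knockout (log2 change 0.42, SE 0.19, adjusted p 0.162). Knockout C lay within the WT range, and the interval of 0.02 to 0.82 includes changes as large as those of called genes. Sgsh, the gene of the sulfatase sulfamidase, was the lowest of the set per length, with 2.73 TPM in WT and 3.16 TPM in the knockout. Its log2 fold change of 0.25 had an interval of -0.22 to 0.72. The remaining glycosidase genes, Hexa (beta-hexosaminidase alpha subunit), Gusb (beta-glucuronidase) and Manba (beta-mannosidase), had log2 fold changes of 0.18, 0.15 and 0.03 and overlapping genotypes.

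Among 7 genes of lipid breakdown and transport, Asah1 alone was called higher with edgeR, and 0 were called lower. Of all tested genes 7.60% were called higher and 5.71% lower. DESeq2 and limma-voom each called 2 of the 7 higher and 0 lower. Asah1 (chromosome 8, 41340197 to 41374773) encodes acid ceramidase, which splits ceramide into sphingosine and a fatty acid. It had 233, 242 and 235 CPM in WT, against 340, 297 and 361 CPM in the knockout. All knockout libraries were well above the narrow WT range, and the rise was 1.41-fold (log2 change 0.49, SE 0.09, adjusted p 0.00176). Psap, the gene of prosaposin, the precursor of activators that sphingolipid hydrolases need, was the second most abundant of the set at 353 TPM in WT. It had 369, 365 and 421 CPM in WT, against 465, 443 and 476 CPM in the knockout (log2 change 0.26, SE 0.08, adjusted p 0.0556 in edgeR). DESeq2 gave Psap an adjusted p of 0.0365 and limma-voom 0.0420, and in edgeR it was 0.0262 without WT C.

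Lipa, the gene of lysosomal acid lipase, which releases cholesterol and fatty acids from lipoproteins, had 17.7, 18.4 and 13.4 CPM in WT, against 25.5, 18.8 and 20.9 CPM in the knockout. These ranges were barely apart (log2 change 0.40, SE 0.16, adjusted p 0.119). Npc1 and Npc2, which together export cholesterol from the lysosome, had log2 fold changes of -0.07 (interval -0.29 to 0.14) and 0.00 (interval -0.22 to 0.22). Smpd1, the gene of acid sphingomyelinase, and Ppt1, the gene of a palmitoyl thioesterase, had log2 fold changes of 0.11 and 0.18 with overlapping genotypes.

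Of 5 membrane proteins, Lamp1 alone was called higher and 0 were called lower, also with DESeq2 and limma-voom. The edgeR shares of all tested genes were 7.60% higher and 5.71% lower. Lamp1 (chromosome 8, 13159161 to 13175338), a heavily glycosylated protein that lines the lysosomal membrane and whose promoter with 4 E-boxes is shown above, was the most abundant gene of the set per length. It had 496, 501 and 549 CPM in WT, against 801, 785 and 795 CPM in the knockout. The knockout libraries lay close together and far above WT, a 1.54-fold rise (log2 change 0.62, SE 0.08, adjusted p 0.000105). Exons of Grtp1 on the opposite strand cover 7.94% of the exon bases of Lamp1, and Grtp1 had a log2 fold change of 0.61.

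Lamp2, on chromosome X, encodes the related protein that also serves chaperone-mediated autophagy. It had 104, 128 and 89.8 CPM in WT, against 118, 77.6 and 85.6 CPM in the knockout (log2 change -0.19, interval -0.51 to 0.13, adjusted p 0.452). The genotypes overlapped, with knockout A between WT A and WT B. Without knockout A, Lamp2 was called lower (log2 change -0.39, adjusted p 0.0315). Cd63, a tetraspanin of late endosomes, lysosomes and exosomes, had 106, 104 and 104 CPM in WT, against 142, 107 and 123 CPM in the knockout (log2 change 0.25, SE 0.10, adjusted p 0.133), and was called without knockout B (adjusted p 0.0458). Mcoln1, the gene of the lysosomal calcium channel TRPML1, and Cln3, a membrane protein whose loss causes juvenile ceroid lipofuscinosis, had log2 fold changes of 0.04 (interval -0.27 to 0.36) and 0.18 (interval -0.10 to 0.46). Both hold 2 copies of CACGTG in their windows.

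**Figure D3:**
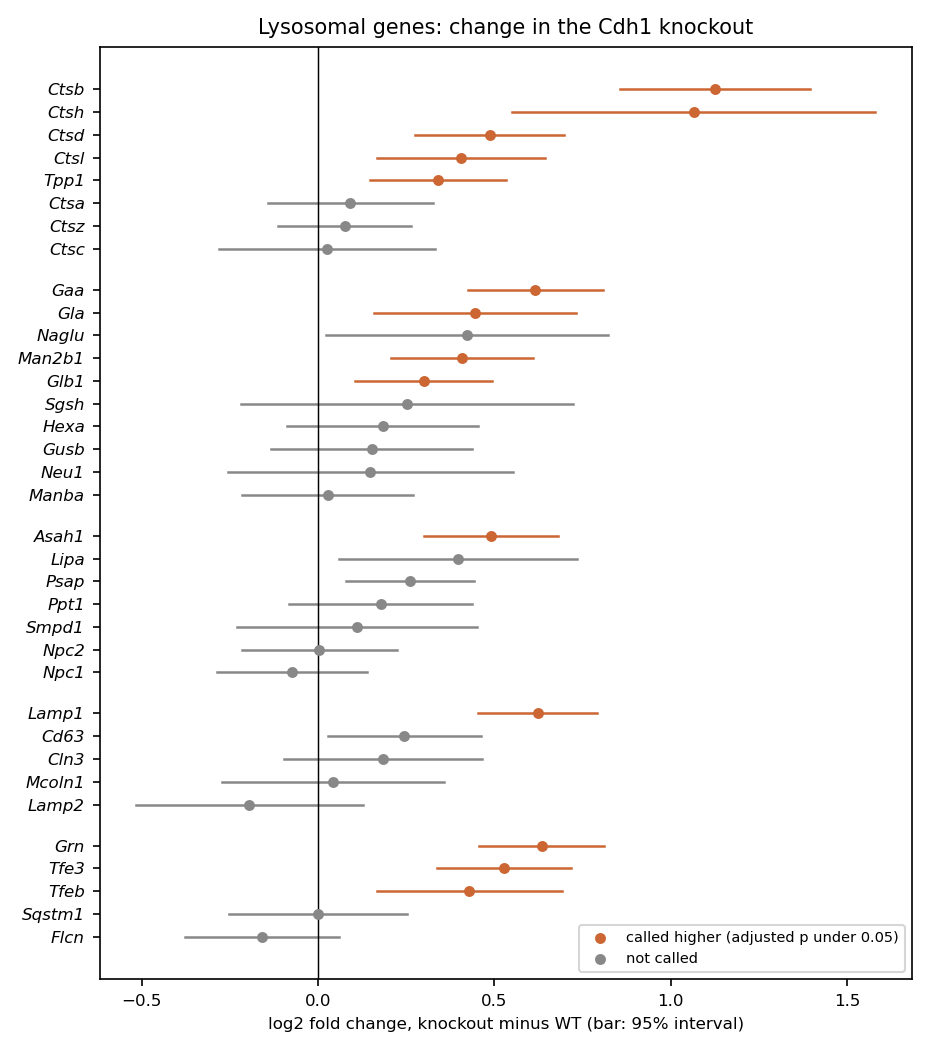
Log2 fold change, knockout minus WT, of each of the 35 genes with its 95% interval from edgeR's quasi-likelihood fit, grouped by role from the top: proteases, glycosidases and the sulfatase, lipid handling, membrane proteins, and regulators with Grn and Sqstm1. The 14 called genes (orange) lie between 0.30 and 1.13, and the 21 others (grey) between -0.19 and 0.42.

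Both transcription factor genes rose. Tfe3 (ENSMUSG00000000134.17, chromosome X, 7762658 to 7775202) had 94.0, 105 and 92.9 CPM in WT, against 150, 133 and 137 CPM in the knockout. Every knockout library was above every WT library, and the rise was 1.44-fold (log2 change 0.53, SE 0.09, adjusted p 0.00107). Tfeb (ENSMUSG00000023990.18, chromosome 17, 47737030 to 47792419) was less abundant, at 14.1 TPM in WT against 67.6 TPM for Tfe3. It had 22.8, 20.6 and 24.1 CPM in WT, against 27.4, 33.3 and 30.2 CPM in the knockout (log2 change 0.43, SE 0.12, adjusted p 0.0307). The ranges were apart, but the adjusted p of Tfeb was 0.0973 without WT A, 0.130 without WT B, 0.121 without knockout B and 0.0766 without knockout C. The activity of either factor depends on its phosphorylation and location, which counts do not measure.

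Grn (chromosome 11, 102430315 to 102436809) encodes progranulin, a secreted protein that is delivered to lysosomes and cut into granulins there. It had 110, 106 and 106 CPM in WT, against 177, 163 and 160 CPM in the knockout, a 1.55-fold rise with little spread in either genotype (log2 change 0.63, SE 0.08, adjusted p 0.000131). Flcn, the gene of folliculin, had 61.5, 64.6 and 58.8 CPM in WT, against 60.9, 55.5 and 49.2 CPM in the knockout. Its libraries overlapped and its log2 fold change of -0.16 was not called (interval -0.38 to 0.06, adjusted p 0.350). Sqstm1, which encodes the autophagy receptor p62, had 254, 205 and 242 CPM in WT, against 275, 194 and 232 CPM in the knockout, with means of 234 CPM in both genotypes (interval of the log2 fold change -0.25 to 0.25).

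Around these regulators, 22 genes of nutrient sensing at the lysosome were examined, the Rag GTPases, their anchors and mTORC1 among them. None was called higher (0 of 22) and 2 were called lower, when 7.60% of all tested genes were called higher and 5.71% lower. The counts were also 0 and 2 at an unadjusted p under 0.05, with DESeq2 and with limma-voom. Rragd (chromosome 4, 32983037 to 33022180), the gene of RagD, a subunit that pairs with RagA or RagB and binds TFEB and TFE3, had 53.1, 52.3 and 49.0 CPM in WT. In the knockout it had 23.1, 19.0 and 21.2 CPM, under every WT value. It fell to 0.409 of the WT level (log2 change -1.29, SE 0.11, adjusted p 5.40e-06). Rragb, the gene of RagB, on chromosome X, had 30.9, 38.2 and 27.2 CPM in WT and lay between 21.9 and 23.7 CPM in the knockout libraries (log2 change -0.51, SE 0.13, adjusted p 0.0199). Its adjusted p was 0.0585 without WT A, 0.119 without WT B, 0.0822 without knockout B and 0.0771 without knockout C. The median of the 22 genes was -0.09.

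**Figure D4:**
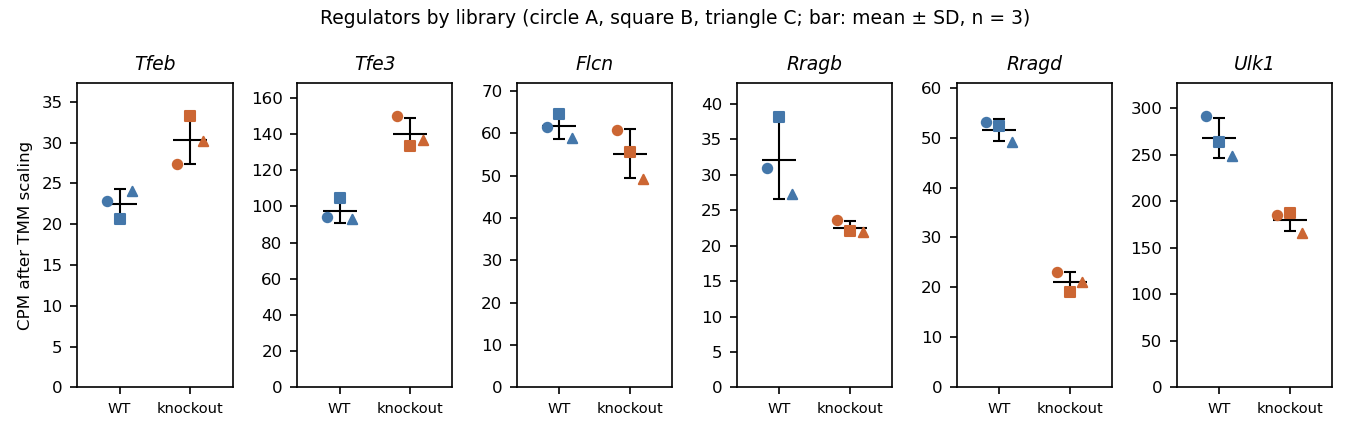
CPM after TMM scaling of Tfeb, Tfe3, Flcn, Rragb, Rragd and Ulk1 in each library on linear axes that start at 0 (circle A, square B, triangle C; black bars, mean ± SD, n = 3). Tfeb and Tfe3 lie higher in all knockout libraries, Rragb, Rragd and Ulk1 lower, and Flcn overlaps.

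The other parts of the lysosome were followed through 5 further lists, with 1 list of the remaining TFEB relatives. Of 27 tested hydrolases and activators outside the set, 6 were called higher (22.2%, beside 7.60% of all tested genes) and 0 lower, with a median log2 fold change of 0.15. At an unadjusted p under 0.05 the counts were 8 and 3, with DESeq2 7 and 0, and with limma-voom 6 and 0. The largest rises were those of Ctsf, the gene of cathepsin F (a mean of 13.5 CPM in WT and of 21.2 CPM in the knockout, n = 3 each; edgeR adjusted p 0.00570), and Pla2g15, the gene of lysosomal phospholipase A2 (44.1 to 51.8 CPM and 64.8 to 77.9 CPM, adjusted p 0.00175). Acp5, a tartrate-resistant acid phosphatase, rose 1.46-fold (adjusted p 0.0252), and the adjusted p became 0.123 without WT A, 0.103 without WT C, 0.0731 without knockout B and 0.0783 without knockout C. Fuca1 and Scpep1, called but outside the rule for naming genes, had log2 fold changes of 0.38 and 0.28. Both kept their call without knockout A and lost it without any other 1 library, with adjusted p from 0.0543 to 0.153.

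The V-ATPase is the proton pump that acidifies the lysosome. All 19 of its tested subunit and accessory genes had a log2 fold change above 0, with a median of 0.17. Of these, 3 were called higher and 0 lower. Among all 17325 tested genes 48.9% lay above 0, 7.60% were called higher and 5.71% lower. At an unadjusted p under 0.05, 2444 of them were higher and 2178 lower. Of the 19, 8 were higher and 0 lower at an unadjusted p under 0.05, with DESeq2 4 and 0, and with limma-voom 3 and 0. Atp6ap2, an accessory subunit also known as the prorenin receptor, on chromosome X, had 86.8, 98.5 and 94.0 CPM in WT, against 182, 173 and 185 CPM in the knockout. It rose 1.93-fold with no overlap (log2 change 0.95, SE 0.09, adjusted p 6.45e-06). Atp6v0a1 and Atp6v0e2, 2 subunits of the membrane sector, had log2 fold changes of 0.44 (adjusted p 0.00776) and 0.56 (adjusted p 0.0256). The first had an adjusted p of 0.0531 without WT A, and the second 0.0808 without WT A, 0.0889 without WT B and 0.0697 without knockout B.

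Of 9 genes that tag, sort or export lysosomal enzymes, 1 was called higher and 0 lower. The shares of all tested genes were 7.60% and 5.71%. For the 9 genes the counts were 4 and 0 at an unadjusted p under 0.05, and 2 and 0 with DESeq2 and with limma-voom. The median log2 fold change of the 9 was 0.22. The 15 other membrane proteins had 0 called genes with edgeR, DESeq2 or limma-voom, 4 higher and 0 lower at an unadjusted p under 0.05, and a median of 0.10. Neither Mitf nor Tfec, the relatives of Tfeb and Tfe3, was called (log2 fold changes -0.30 and 1.19, the latter from under 2 CPM in every library).

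Autophagy delivers cell contents to the lysosome. Of 26 genes of its machinery, 1 was called higher and 3 lower, when 7.60% of all tested genes were called higher and 5.71% lower. At an unadjusted p under 0.05 there were 4 higher and 9 lower, and DESeq2 and limma-voom each called 1 and 3. In 9 of the 26 every knockout library lay below every WT library, as in 2602 of all 17325 tested genes, and the median log2 fold change was -0.10. Ulk1 (chromosome 5, 110784488 to 110810097), the kinase that starts autophagosome formation, had 291, 264 and 248 CPM in WT, against 185, 187 and 166 CPM in the knockout. It fell to 0.671 of the WT level (log2 change -0.58, SE 0.09, adjusted p 0.000576). The other 3 calls lie on chromosomes with shifted medians: Atg14 on chromosome 14, and Rb1cc1 and Atg16l1, the last of them outside the rule for naming genes, on chromosome 1. Their log2 fold changes of 0.81, -0.39 and -0.38 became 0.27, -0.08 and -0.07 with the chromosome medians removed, and none was then called (adjusted p 0.107, 0.664 and 0.739). Atg16l1 had an adjusted p of 0.130 without WT A, 0.0880 without WT C, 0.0649 without knockout B and 0.0791 without knockout C.

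Over these 7 lists together, 120 of 122 genes were tested, and 11 of them (9.17%) were called higher and 5 lower, close to the 7.60% and 5.71% of all tested genes. Their median log2 fold change was 0.06. Without WT A there were 5 higher and 3 lower (4.73% and 2.99% of all genes), and without WT B 7 higher (4.97%). Without knockout A there were 14 lower (6.80% of all genes). The lower count was 3 without knockout B (3.35%) and without knockout C (3.56%).

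**Figure D5:**
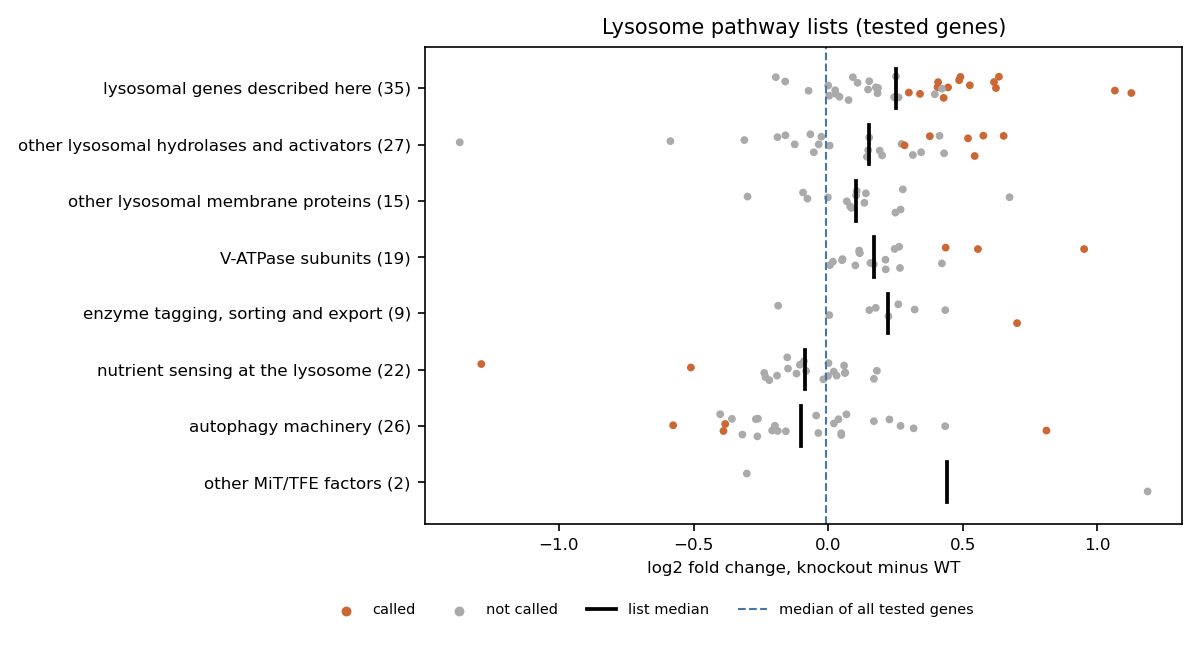
Log2 fold change, knockout minus WT, of each tested gene in the 35-gene set (top) and in 7 other lists of the lysosome pathway, with the number tested in brackets; points are spread vertically for legibility. List medians (black) range from -0.10 for the autophagy machinery to 0.25 for the set, leaving aside the 2 TFEB relatives, and the dashed line marks the median of all tested genes at -0.01.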

How the data were processed

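Per the labels' protocols, total RNA was isolated with TRIzol and made into libraries with a directional kit. The authors deposited an unnormalized count of reads for each gene in each of 6 libraries. The submitters' processing notes list cutadapt 2.10, STAR 2.7.5b, featureCounts 2.0.1 and the build GRCm38, without settings. Between 78.1% and 83.1% of counts from 1 to 10 were even, as when both mates of a pair are counted, so halved counts were an alternative.

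Symbols came from a gene name table (55141 of 55401 genes matched). Counts were filtered with filterByExpr (smallest count 10, smallest total 15) and fitted with edgeR 4.0.16 in R 4.3.3: TMM scaling, glmQLFit and glmQLFTest, genotype as the only term, Benjamini-Hochberg adjustment over 17325 genes, calls at an adjusted p under 0.05. Standard errors and 95% intervals derive from the F statistic. TPM, coordinates and overlaps used the exons in the deposited table. DESeq2 1.42.0 and limma 3.58.1 (voom) were alternatives, with other scalings and filters, the replicate letter as a block, chromosome medians removed and each library left out. The rule for names took all 35 genes, Cdh1 and up to 3 called genes of each other list by size of change. The set and the lists were chosen with earlier results of these data known. Some genes of the other lists are counted but not reported here by name.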

Additional observations from a re-analysis of the deposited data

How the results depend on the processing

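With an adjusted p under 0.01 in place of 0.05, 9 lysosomal genes were called higher, and 6 other pathway genes were called higher and 3 lower. Of all tested genes 4.51% were called higher at that threshold. Without a filter on low counts 19 other pathway genes were called higher, as were 5.25% of all 32417 genes then tested. With the medians of chromosomes 1 and 14 removed 3 other pathway genes were called lower, as were 4.08% of all tested genes. Leaving out 1 library gave 9 to 13 lysosomal genes called higher and 0 to 1 lower, and 5 to 14 other pathway genes called higher and 3 to 14 lower. In these fits 4.73% to 8.67% of all genes were called higher and 2.99% to 6.80% lower. Of the 14 called lysosomal genes, 8 stayed called under all 15 alternatives in which every gene was refitted. Gla also lost its call with upper quartile scaling (adjusted p 0.0639), and Glb1 with that scaling (0.0681) and with the chromosome medians removed (0.0516). That scaling lowered the median of all genes to -0.04.

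With the replicate letter as a block, 15 lysosomal genes were called higher, when 8.65% of all genes were. The letters name no shared culture in the labels, so they were not taken as pairs in the main fit. The deviations of same-letter libraries correlated at 0.14 for A, -0.03 for B and 0.23 for C. For WT A and WT C the same letter was the best match. WT A with knockout C had -0.14, and WT C with knockout A -0.25. WT B correlated best with knockout A (0.12). Whether a letter marks a shared culture was not tested. Knockout B correlated better with WT C (0.05) than with its own letter.

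Genes that were not called and lay near 0 changed sign. Sqstm1 had a log2 fold change of -0.00057 with RLE size factors, -0.036 with upper quartile scaling, -0.011 with a mean CPM of at least 1, -0.00042 with DESeq2, -0.012 with limma-voom, -0.0077 with the block, -0.0099 with counts divided by 2, and -0.13 to 0.13 without 1 library. Upper quartile scaling also gave Ctsc -0.011, Npc2 -0.032 and Manba -0.011, and Npc2 had -0.0069 with the CPM filter and -0.0056 with counts divided by 2. Without 1 library, Ctsa ranged from -0.00098 to 0.20, Ctsc from -0.027 to 0.12, Neu1 from -0.18 to 0.31, Npc2 from -0.085 to 0.081, Manba from -0.046 to 0.15, Smpd1 from -0.031 to 0.24 and Mcoln1 from -0.14 to 0.21. The cause of these sign changes was not tested.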
